A study of Mus musculus with 9 samples.

Results

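The basement membrane collagens were followed in epididymal adipose tissue of mice that lost weight after a change of diet. They were taken as the 8 rows of the count table that carry the symbols *Col4a1*, *Col4a2*, *Col4a3*, *Col4a4*, *Col4a5*, *Col4a6*, *Col15a1* and *Col18a1*, out of 56748 annotated genes. The mice were WT male C57BL/6J animals that received high-fat diet (HFD) from 8 weeks of age for 8 weeks. The Pre group was sampled at the end of this feeding, the WL1 group after a further 1 week of standard diet (SD) and the WL2 group after a further 2 weeks of SD. All 9 libraries, 3 in each group, therefore come from mice with the same 8 weeks of HFD, and the WL1 and WL2 mice were older at sampling by 1 and 2 weeks, so that the diet and the time since Pre cannot be told apart. The labels do not say whether the 3 libraries of a group came from separate mice, so the p-values measure the spread between these samples.

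Basement membranes are thin sheets of matrix that surround each adipocyte and underlie the endothelium of capillaries and the mesothelium that covers the fat pad. Their scaffold is a network of type IV collagen, built from trimers of alpha chains that are crosslinked at their ends, and is joined to a laminin network by nidogens and by perlecan. Type XV and type XVIII collagens are proteoglycans of the same sheets. They connect the sheet with the fibrils around it, and the end of type XVIII collagen is released by proteases as endostatin.

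The libraries held between 16434450 and 22729072 counted reads. Reads were scaled by the library totals and by trimmed mean of M-values (TMM) factors between 0.933 and 1.065, and are given as CPM, the counts of a gene relative to the scaled library total. Adipocyte markers were abundant in every library, with 8690 to 16100 CPM of the fatty acid binding protein *Fabp4*, and the summed level of 8 genes of epididymis epithelium was at most 0.991 CPM. A difference in composition concerned Pre replicate 2, in which 8 T cell markers summed to 61.6 CPM against 8.37 to 13.8 CPM in the other 8 libraries, and in which the B cell marker *Cd79a* stood at 67.0 CPM against at most 5.38 CPM elsewhere. Another B cell marker, *Ighm*, was high in all Pre libraries, at 1120 to 2500 CPM against 137 to 285 CPM at WL1 and WL2. The liver gene *Alb* stood at 33.5 and 62.8 CPM in Pre replicates 2 and 3 and at 47.6 CPM in WL1 replicate 1. Elsewhere *Alb* stood at 1.61 to 7.13 CPM.

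Reads of the 8 genes made up 0.632% to 0.707% of all counted reads at Pre, 0.407% to 0.490% at WL1 and 0.216% to 0.293% at WL2. The share was lower at each later phase, with no overlap between the libraries of any 2 phases. All 8 genes passed the filter on low counts. Phases were compared by edgeR's quasi-likelihood test in 1 model of the 9 libraries, with a threshold of 0.05 on p-values after Benjamini-Hochberg adjustment over all 18510 tested genes. At WL1 against Pre, 4 of the 8 genes passed the threshold, all lower, where 7.29% of all tested genes passed it and 4.69% passed it as lower. At WL2 against Pre the same 4 genes passed, again as lower, where 10% of all genes passed and 6.66% passed as lower. At WL2 against WL1, 3 of these 4 passed as lower, where 3.68% of all genes passed and 2.37% passed as lower. These 4 were *Col4a1*, *Col4a2*, *Col15a1* and *Col18a1*, and *Col18a1* was the one that did not pass between WL1 and WL2. None of the 8 genes passed the threshold as higher in this model or by DESeq2, where 2.6%, 3.35% and 1.31% of all genes passed as higher in the model. At WL2 against WL1, 1 of the 8, *Col4a6*, had an unadjusted p under 0.05 as higher, and it passed the threshold in edgeR without the filter on low counts. The median log2 fold change of the 8 genes was -0.69 at WL1 and -0.75 at WL2 against Pre, and that of all tested genes was 0.02 and 0.01. In bulk tissue, fewer cells of a type and less RNA per cell cannot be told apart.

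**Figure D1:**
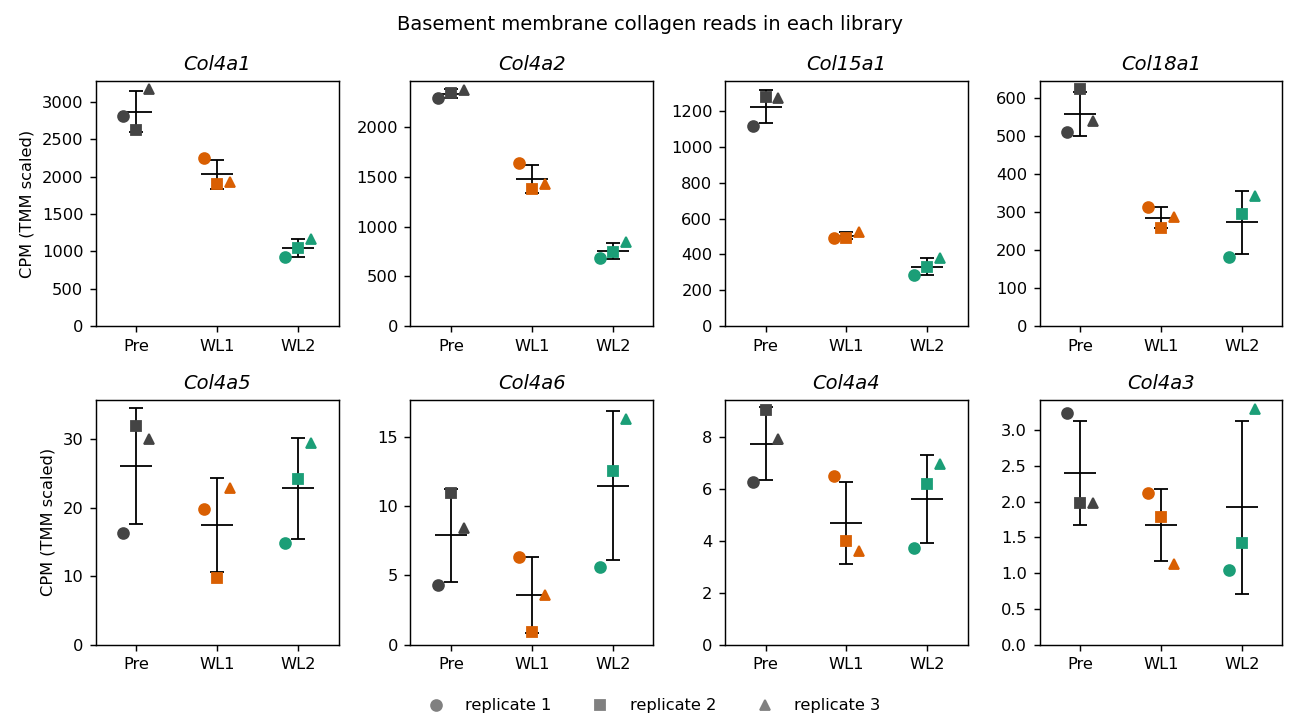
Reads of each basement membrane collagen gene in CPM (TMM scaled, linear axes from 0) by phase, with 1 point per library, the replicate number shown by the shape, a horizontal line at the mean and bars of 1 SD (n = 3). The 4 abundant genes of the upper row stood below Pre at WL1 and WL2 in every library, whereas the libraries of the 4 genes of the lower row overlapped between Pre and the later phases.

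*Col4a1* and *Col4a2* encode the chains of the type IV network found in nearly all basement membranes. In the authors' table, *Col4a1* (ENSMUSG00000031502) lies on the minus strand of chromosome 8 between 11248423 and 11362826, and *Col4a2* (ENSMUSG00000031503) on the plus strand between 11362805 and 11499287. The genes are thus arranged head to head and overlap by 22 bases. *Col4a5* and *Col4a6* are also neighbours on opposite strands of chromosome X, and *Col4a3* and *Col4a4* on chromosome 1. The promoter sequences of *Col4a1* with *Col4a2*, the abundant pair, and of *Col4a5* with *Col4a6*, a scarce pair, are shown because both pairs are read outward from neighbouring start sites. They are RefSeq windows on GRCm38.p6 that run from 250 bases before to 50 bases after the start site, in the direction of the gene, at chr8:11312777-11313076 (minus strand), chr8:11312555-11312854 (plus strand), chrX:141475169-141475468 (plus strand) and chrX:141474027-141474326 (minus strand). Capitals mark the matches to the searched motifs, the TATA box TATAAA, the CCAAT box CCAAT, the GC box GGGCGG and the core ACGTG of hypoxia response elements, on either strand.
Col4a1: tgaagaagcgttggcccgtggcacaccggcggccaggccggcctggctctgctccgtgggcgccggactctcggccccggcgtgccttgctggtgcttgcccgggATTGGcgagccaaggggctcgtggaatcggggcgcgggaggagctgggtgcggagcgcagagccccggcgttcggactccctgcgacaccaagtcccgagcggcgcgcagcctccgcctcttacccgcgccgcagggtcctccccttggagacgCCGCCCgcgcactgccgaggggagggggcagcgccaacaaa
Col4a2: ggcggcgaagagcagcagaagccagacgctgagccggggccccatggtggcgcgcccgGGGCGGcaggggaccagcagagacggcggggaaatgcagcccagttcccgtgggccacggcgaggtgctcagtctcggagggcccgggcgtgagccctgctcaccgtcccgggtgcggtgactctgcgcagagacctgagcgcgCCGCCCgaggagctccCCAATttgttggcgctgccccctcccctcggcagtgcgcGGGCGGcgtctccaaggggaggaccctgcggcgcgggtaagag
Col4a5: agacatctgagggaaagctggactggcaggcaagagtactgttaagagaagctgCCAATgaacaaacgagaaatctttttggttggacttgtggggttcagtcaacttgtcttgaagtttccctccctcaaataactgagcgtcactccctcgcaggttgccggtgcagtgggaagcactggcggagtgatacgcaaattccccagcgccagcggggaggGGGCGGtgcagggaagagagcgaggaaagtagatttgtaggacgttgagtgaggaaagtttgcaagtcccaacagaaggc
Col4a6: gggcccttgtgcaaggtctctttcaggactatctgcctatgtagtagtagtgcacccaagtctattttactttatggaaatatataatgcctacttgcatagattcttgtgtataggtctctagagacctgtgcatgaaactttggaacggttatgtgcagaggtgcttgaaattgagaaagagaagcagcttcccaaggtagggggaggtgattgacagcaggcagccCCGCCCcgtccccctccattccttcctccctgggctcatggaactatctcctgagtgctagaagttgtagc

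The *Col4a1* and *Col4a2* windows share 78 bases, and 22 of these lie downstream of both start sites. Their GC contents of 74.0% and 73.7% were above the median of 52.7% over the 32851 windows of the table. A single GC box in the shared bases was read in both windows, 10 bases into *Col4a1* and 8 bases into *Col4a2*. The *Col4a2* window held 2 more GC boxes, at -192 and, on the opposite strand, at -48. A CCAAT box was also read in each window, at -145 for *Col4a1* (on the opposite strand) and at -32 for *Col4a2*. The box at -32 of *Col4a2* runs past the end of the *Col4a1* window and so could not be read in it. The *Col4a5* and *Col4a6* start sites lie 1343 bases apart, their windows do not overlap, and their GC contents were 52.7% and 48.3%. A CCAAT box at -196 and a GC box at -30 were found for *Col4a5*, and a GC box at -21, on the opposite strand, for *Col4a6*. The letters of the GC box occurred in 35.7% and those of the CCAAT box in 37.4% of all windows, and neither the TATA box (13.6% of all windows) nor the hypoxia core (19.6%) was found in the 4 windows printed here. In the third pair, which is not printed, *Col4a3* had no window and the *Col4a4* window held a hypoxia core at -84. A match describes the letters only.

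*Col4a1* stood at 2814, 2627 and 3170 CPM in the 3 Pre libraries. The values were 2254, 1906 and 1929 CPM at WL1. They were 926, 1047 and 1160 CPM at WL2. The 3 phases did not overlap, and each step was downward. Against Pre, *Col4a1* was lower by a log2 fold change of -0.50 ± 0.13 (SE) at WL1 (adjusted p = 0.0457) and of -1.46 ± 0.13 at WL2 (adjusted p = 0.000123), that is 1.41 and 2.75 times lower. From WL1 to WL2 the log2 fold change was -0.96 ± 0.13 (adjusted p = 0.00753). The call at WL1 lay close to the threshold. It was lost in 8 of the 9 fits that left out a single library (log2 fold changes -0.58 to -0.42), namely without Pre replicates 1, 2 and 3 (adjusted p = 0.104, 0.0505 and 0.104), without WL1 replicates 1, 2 and 3 (adjusted p = 0.0620, 0.134 and 0.136) and without WL2 replicates 2 and 3 (adjusted p = 0.0782 and 0.0575). The call was also lost in 6 of the other 10 settings, among them scaling by library totals alone (log2 fold change -0.40, adjusted p = 0.0998).

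*Col4a2* followed with 2298, 2343 and 2379 CPM at Pre. It stood at 1638, 1378 and 1426 CPM at WL1 and at 685, 745 and 845 CPM at WL2. The Pre libraries lay close together, with an SD of 40.4 CPM around a mean of 2340 CPM, and the phases did not overlap. The log2 fold change was -0.66 ± 0.12 at WL1 (adjusted p = 0.0112) and -1.63 ± 0.12 at WL2 (adjusted p = 3.54e-05) against Pre, and -0.97 ± 0.12 from WL1 to WL2 (adjusted p = 0.00537). Unlike *Col4a1*, *Col4a2* passed the threshold at WL1 in all 19 alternative settings. Between WL1 and WL2, both genes missed the threshold without WL2 replicate 2 (adjusted p = 0.0579 for *Col4a1* and 0.0505 for *Col4a2*), with log2 fold changes of -0.96 and -0.95. The 22 bases of overlap between the genes and the strand setting of the counting, which the sources used here do not give, leave a few reads that could belong to either.

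*Col15a1* (ENSMUSG00000028339, chromosome 4, 47208161 to 47313167, plus strand) encodes type XV collagen, a proteoglycan at the outer face of basement membranes in fat, muscle and capillaries. Its libraries held 1117, 1278 and 1275 CPM at Pre, followed by 494, 490 and 527 CPM at WL1. At WL2 they held 285, 331 and 379 CPM. The step between Pre and WL1 was wide and the WL1 libraries hardly differed among themselves. *Col15a1* had the lowest adjusted p of the 8 genes in both comparisons with Pre, with a log2 fold change of -1.28 ± 0.13 at WL1 (adjusted p = 0.000637) and of -1.88 ± 0.13 at WL2 (adjusted p = 2.03e-05), or 2.43 and 3.69 times lower. Ordered by p, it was number 30 of the 18510 genes at WL1 and number 26 at WL2, and it passed the threshold against Pre in all 19 alternatives. The second step, from WL1 to WL2, was smaller, at -0.60 ± 0.12 (adjusted p = 0.0316). This call was lost without WL1 replicates 1, 2 and 3 (adjusted p = 0.0647, 0.0797 and 0.123) and without WL2 replicates 2 and 3 (adjusted p = 0.158 and 0.0590).

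*Col18a1* (ENSMUSG00000001435, chromosome 10, 76888012 to 77002382, minus strand) encodes type XVIII collagen, the source of endostatin. The Pre libraries held 510, 622 and 539 CPM and the WL1 libraries 313, 257 and 285 CPM. The WL2 libraries spread over 180, 294 and 342 CPM, on either side of the WL1 values. Thus *Col18a1* was lower than at Pre in every library of WL1 and WL2, but its WL1 and WL2 libraries overlapped. The log2 fold change against Pre was -0.96 ± 0.21 at WL1 (adjusted p = 0.0219) and -1.03 ± 0.21 at WL2 (adjusted p = 0.0115). Between WL1 and WL2 it was -0.07, with a 95% interval of -0.52 to 0.38 (adjusted p = 0.899). The call at WL1 was lost without Pre replicate 2 (adjusted p = 0.0534) and without WL1 replicates 1, 2 and 3 (adjusted p = 0.0519, 0.0751 and 0.0742), whereas the call at WL2 was kept in all 19 alternatives, with an adjusted p of at most 0.0432. *Slc19a1*, the reduced folate carrier gene, overlaps *Col18a1* on the opposite strand over 8825 bases. It had 3888 reads over the 9 libraries beside 62472 reads of *Col18a1*.

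The libraries of these 4 genes did not overlap between WL1 and Pre or between WL2 and Pre, with lower values after the change of diet. Among all tested genes, 13.9% and 15.8% were lower without overlap in these comparisons. Between WL2 and WL1, *Col4a1*, *Col4a2* and *Col15a1* were lower without overlap, where 16.4% of all tested genes were.

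**Figure D2:**
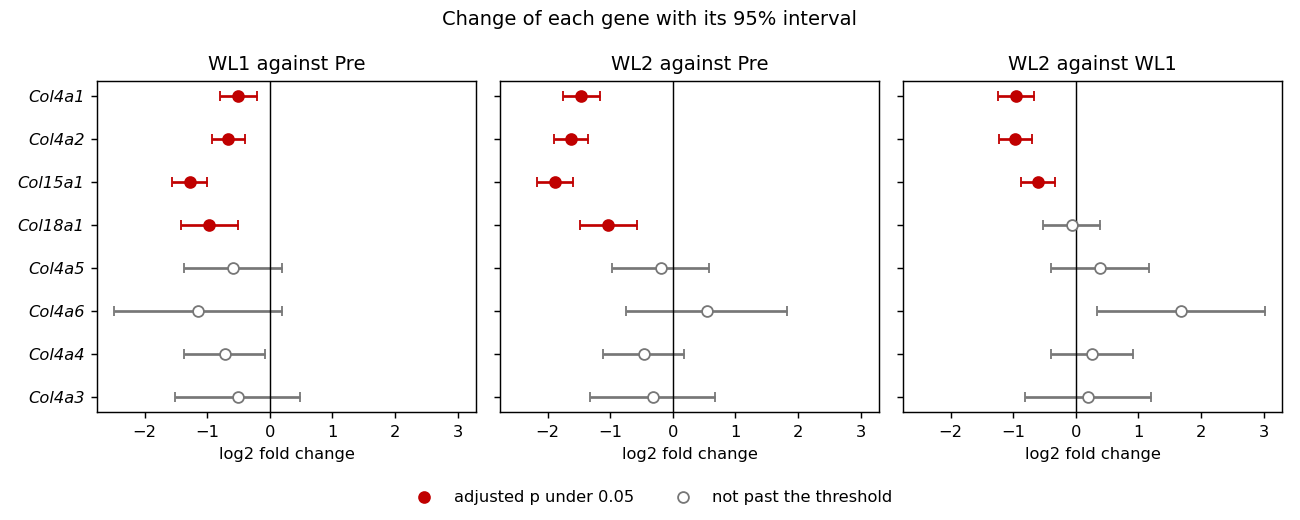
Log2 fold change of each gene (x axis) with its 95% interval in the 3 comparisons, from edgeR's quasi-likelihood fit, with filled red points for an adjusted p under 0.05. *Col4a1*, *Col4a2* and *Col15a1* lie below 0 in all 3 panels, *Col18a1* lies near 0 between WL1 and WL2, and the intervals of the scarce type IV genes are wide.

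The other type IV genes were scarce. *Col4a5* (ENSMUSG00000031274, chromosome X, 140258381 to 140472230, plus strand) encodes a chain that joins either the *Col4a3* and *Col4a4* products, as in the kidney glomerulus, or the *Col4a6* product, as around smooth muscle. It stood at 16.3, 31.9 and 30.0 CPM at Pre, at 19.8, 9.775 and 22.9 CPM at WL1 and at 14.8, 24.1 and 29.5 CPM at WL2. The 3 phases overlapped. Its log2 fold change against Pre had 95% intervals of -1.36 to 0.20 at WL1 and -0.97 to 0.58 at WL2 (adjusted p = 0.339 and 0.761).

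*Col4a6* (ENSMUSG00000031273, chromosome X, 139948399 to 140257072, minus strand) was measured at 4.30, 11.0 and 8.39 CPM at Pre and at 6.35, 0.872 and 3.60 CPM at WL1. At WL2 it was measured at 5.64, 12.5 and 16.3 CPM. WL1 replicate 2 was the lowest of the 9 libraries with 19 reads, and WL2 replicate 3 was the highest with 282 reads. The log2 fold change was -1.14 (95% interval -2.48 to 0.20) at WL1 and 0.54 (-0.74 to 1.82) at WL2 against Pre (adjusted p = 0.275 and 0.589). From WL1 to WL2 it was 1.68 ± 0.61 (adjusted p = 0.141). Without the filter on low counts the same difference passed the threshold, with a log2 fold change of 1.68 and an adjusted p of 0.0197, and over all 19 alternatives the adjusted p ran from 0.0197 to 0.364.

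*Col4a3* (ENSMUSG00000079465, chromosome 1, 82564642 to 82699780, plus strand) and *Col4a4* (ENSMUSG00000067158, chromosome 1, 82426144 to 82564570, minus strand) encode chains of the glomerular and alveolar type IV network. *Col4a4* stood at 6.25, 9.03 and 7.93 CPM at Pre, at 6.51, 3.99 and 3.60 CPM at WL1 and at 3.72, 6.17 and 6.95 CPM at WL2. Its phases overlapped, and its log2 fold change of -0.72 at WL1 had a 95% interval of -1.37 to -0.07 and an adjusted p of 0.166. At WL2 the log2 fold change of *Col4a4* was -0.46 (adjusted p = 0.341). *Col4a3* had 19 to 57 reads in a library, at 3.24, 1.98 and 1.98 CPM at Pre, 2.12, 1.79 and 1.12 CPM at WL1 and 1.04, 1.42 and 3.30 CPM at WL2. Its 95% interval against Pre was -1.51 to 0.49 at WL1 and -1.32 to 0.67 at WL2. The interval at WL1 includes both no change and the change of *Col4a1* at WL1 (-0.50), so it does not separate them. The change of *Col4a1* at WL2 (-1.46) lies outside the interval of *Col4a3* at WL2. The antisense gene *C430014B12Rik* overlaps *Col4a3* and had 122 reads beside its 333 reads over all libraries, and without a known strand setting these reads cannot be told apart.

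Levels of different genes were compared per length, as the deposited FPKM (fragments scaled by gene length and by a total the authors set for each library). Relative to the counted reads, this total was higher at WL1 and WL2 than at Pre, which enters comparisons of FPKM between phases. Mean FPKM at Pre were 361 ± 34.8 (SD, n = 3) for *Col4a1*, 332 ± 6.22 for *Col4a2*, 181 ± 13.9 for *Col15a1* and 74.5 ± 7.91 for *Col18a1*. These spreads do not separate *Col4a1* from *Col4a2*, and the libraries of the other neighbours in this order did not overlap. The scarce genes followed with 3.65 ± 1.19 for *Col4a5*, 0.929 ± 0.397 for *Col4a6*, 0.685 ± 0.125 for *Col4a4* and 0.226 ± 0.0680 for *Col4a3*. *Col4a6* and *Col4a4* did not differ beyond their spread at Pre. At WL2 the means were 132 ± 16.7 for *Col4a1*, 108 ± 12.9 for *Col4a2*, 49.1 ± 7.60 for *Col15a1* and 36.5 ± 11.6 for *Col18a1*. The order by mean FPKM was the same at Pre and WL2 for all 8 genes. Among 21970 protein-coding genes ordered by FPKM, *Col4a1* ranked 77 to 105 in the Pre libraries, 94 to 142 in the WL1 libraries and 212 to 338 in the WL2 libraries. *Col15a1* ranked 192 to 238 at Pre, and 519 to 591 and then 701 to 1066 at WL1 and WL2.

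Of the summed FPKM of the 6 type IV genes, *Col4a1* and *Col4a2* together made up 97.45% to 99.5% in every library. The share of *Col4a5* with *Col4a6* was 0.336% to 0.858% in the Pre and WL1 libraries and 1.26% to 2.21% in the WL2 libraries. The share of *Col4a3* with *Col4a4* was 0.09445% to 0.149% at Pre and WL1 and 0.197% to 0.339% at WL2. Both minor pairs thus took a larger share of type IV FPKM at WL2, while their own levels did not differ between Pre and WL2 beyond the threshold and those of *Col4a1* and *Col4a2* were lower. The 8 genes accounted for 34.0% to 46.2% of the summed FPKM of 44 collagen genes, with 42.0% to 46.2% at Pre, 34.0% to 44.1% at WL1 and 36.2% to 41.3% at WL2. The summed FPKM of the 44 collagen genes was 1983 to 2317 at Pre, 1243 to 1642 at WL1 and 766 to 914 at WL2.

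Ratios of reads between genes of the same library do not depend on how libraries are scaled, and 6 of them were tested for a difference among the 3 phases by an exact permutation test over the 280 divisions of the libraries, with p-values adjusted over the 6 ratios. The smallest p this test allows is 0.00357. *Col4a1* had an FPKM 1.75 to 2.14 times that of *Col15a1* in the Pre libraries, 3.11 to 3.88 times in the WL1 libraries and 2.61 to 2.76 times in the WL2 libraries. The ratio was thus highest at WL1, in between at WL2 and lowest at Pre, without overlap (exact p = 0.00357, adjusted p = 0.0214, and at most 0.0429 when any library was left out). *Col15a1* had 2.27 to 2.62 times the FPKM of *Col18a1* at Pre, 1.74 to 2.11 at WL1 and 1.22 to 1.75 at WL2 (exact p = 0.00714, adjusted p = 0.0214). The mean log2 ratio of *Col15a1* to *Col18a1* differed by -0.81 between WL2 and Pre in reads, and leaving out single libraries gave adjusted p-values of up to 0.0750.

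*Col4a1* had 3.97 to 5.53 times the FPKM of *Col18a1* at Pre, 6.36 to 6.97 at WL1 and 3.19 to 4.83 at WL2 (exact p = 0.0393, adjusted p = 0.0471). Here the WL1 libraries stood above both other phases and Pre and WL2 overlapped. The ratio of *Col4a1* to *Col4a2* was 0.994 to 1.18 at Pre, 1.20 to 1.23 at WL1 and 1.20 to 1.25 at WL2 (exact p = 0.0357, adjusted p = 0.0471). The shift was small, with a difference of 0.17 in the mean log2 ratio between WL2 and Pre. *Col4a5* had 3.45 to 4.50 times the FPKM of *Col4a6* at Pre, 3.69 to 13.3 at WL1 and 2.14 to 3.12 at WL2 (exact p = 0.0321, adjusted p = 0.0471). Each of these 3 ratios missed the adjusted threshold when single libraries were left out, with adjusted p-values of up to 0.118, 0.118 and 0.133 (exact permutation). For *Col4a3* to *Col4a4* the exact p was 0.807.

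**Figure D3:**
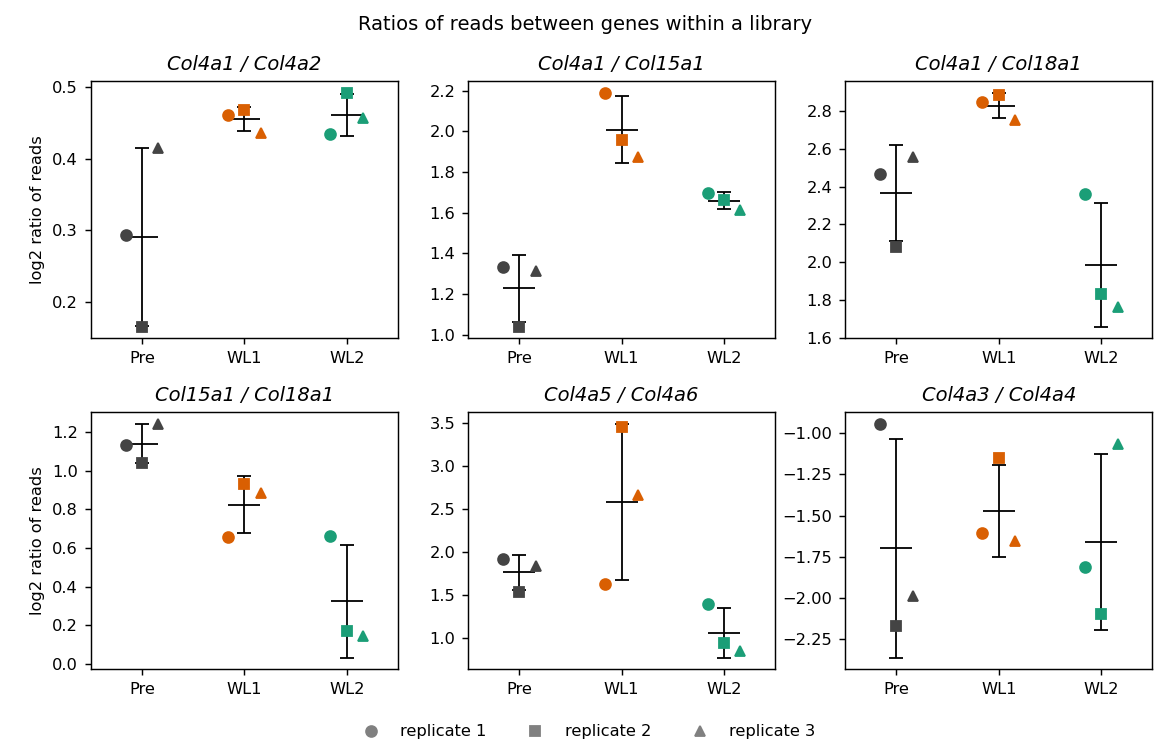
Log2 ratio of reads between 2 genes of the same library (y axis, not starting at 0) by phase, with 1 point per library, the replicate number shown by the shape, the mean and 1 SD (n = 3). The *Col4a1* to *Col15a1* ratio separates the 3 phases, whereas the *Col4a3* to *Col4a4* ratio overlaps in all of them.

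The likeness of patterns was described by Pearson's r of log2 CPM over the 9 libraries, among 13055 protein-coding genes with a mean of at least 1 CPM. The libraries form 3 phases, so any gene that moves steadily with time has a high r, and no test was made. *Col4a2* was the gene most like *Col4a1* (r = 0.992), followed by *Pde7a* (0.989), the leptin gene *Lep* (0.9885), *Cep164* (0.987) and *Tsc22d2* (0.981). The genes most like *Col15a1* were *Mogat2* (0.992), *Scd2* (0.992), *Cyb5b* (0.992), *Trp53inp2* (0.991) and *Tlcd2* (0.991), of which *Scd2* encodes a stearoyl-CoA desaturase and *Mogat2* a monoacylglycerol acyltransferase. *Htra1*, a secreted serine protease, was most like *Col18a1* (0.986), followed by *Myo1c*, *Ogdh*, *Trabd2b* and *Dmpk* (0.964 to 0.972). Within the family, *Col4a1* had an r of 0.916 with *Col15a1* and of 0.771 with *Col18a1*, but of 0.1445 with *Col4a5* and of -0.215 with *Col4a6*. *Col4a5* and *Col4a6* had an r of 0.859 with each other.

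The type IV network is attached to laminins, nidogens and perlecan, and their genes were read beside it. Of 26 tested genes of these and other partners, 1 was lower at WL1 against Pre, 6 were lower at WL2 and 3 were lower from WL1 to WL2. None was higher by edgeR, and DESeq2 called 1 higher at WL2 against Pre and 2 at WL2 against WL1. With library totals alone as scaling, 2 were higher and 4 lower at WL2 against Pre. At an unadjusted p under 0.05, 2, 4 and 4 of the 26 were higher in the 3 comparisons. The median log2 fold change of the partners was -0.06 at WL1 and -0.08 at WL2.

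*Hspg2*, which encodes the heparan sulfate proteoglycan perlecan, stood at 2260, 3130 and 2360 CPM at Pre, 2160, 1730 and 1640 CPM at WL1 and 842, 862 and 1050 CPM at WL2, with a log2 fold change of -1.49 ± 0.17 at WL2 against Pre (adjusted p = 0.000472). *Sparc*, which encodes a secreted protein that binds type IV collagen, stood at 9520, 6030 and 8370 CPM at Pre and at 2980 to 3250 CPM at WL2 (log2 fold change -1.36 ± 0.16, adjusted p = 0.000567). For both genes the WL2 libraries lay below all others. *Lamb3*, a chain of epithelial laminin, stood at 27.9 to 39.9 CPM at Pre, at 26.7 to 39.3 CPM at WL1 and at 7.18 to 8.76 CPM at WL2, with a log2 fold change of -2.16 ± 0.19 at WL2 (adjusted p = 9.35e-05). *Nid2*, a nidogen that links laminin with type IV collagen, stood at 160 to 188 CPM at Pre, 77.0 to 113 CPM at WL1 and 57.5 to 114 CPM at WL2. It was lower at WL1 (log2 fold change -0.95 ± 0.23, adjusted p = 0.0372) and at WL2 (-0.98 ± 0.23, adjusted p = 0.0257), and at WL1 no partner passed the threshold without Pre replicate 2, with 4 lower at an unadjusted p under 0.05. The calls of *Hspg2*, *Sparc* and *Lamb3* at WL2 were kept in all 19 alternatives. That of *Nid2* was lost in 10 (WL1) and 5 (WL2) of the 19, with adjusted p-values of up to 0.132 and 0.0680. Of these losses, 6 and 3 were in fits without a library, and both comparisons lost it with library totals alone and with the replicate block.

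Folding of the trimers requires prolyl and lysyl hydroxylases and the chaperone HSP47, and peroxidasin and lysyl oxidases crosslink the secreted network. Of 23 tested genes of these steps, 2 were lower at WL1, 6 were lower at WL2 and 4 were lower from WL1 to WL2. With TMM scaling none was higher by edgeR, and 1, 0 and 0 were higher at an unadjusted p under 0.05. At WL1, DESeq2 called 1 higher and 5 lower, and edgeR with library totals alone called 1 higher and 1 lower. *Serpinh1*, which encodes HSP47, stood at 1200, 1270 and 1450 CPM at Pre, 658, 711 and 779 CPM at WL1 and 610, 507 and 571 CPM at WL2. Its phases did not overlap, with log2 fold changes of -0.87 ± 0.12 at WL1 (adjusted p = 0.00345) and -1.22 ± 0.12 at WL2 (adjusted p = 0.000258). *P3h1*, a prolyl 3-hydroxylase gene, stood at 74.0 to 85.7 CPM at Pre, 54.2 to 60.4 CPM at WL1 and 37.8 to 43.6 CPM at WL2, with log2 fold changes of -0.49 (adjusted p = 0.0231) and -0.95 (adjusted p = 0.000446). *Lox*, a lysyl oxidase gene, stood at 107 to 141 CPM at Pre, 90.3 to 118 CPM at WL1 and 52.4 to 71.1 CPM at WL2, and was lower at WL2 than at Pre (adjusted p = 0.00282) and than at WL1 (adjusted p = 0.0270). These calls against Pre were kept in all 19 alternatives, except that *P3h1* at WL1 was lost in 4 fits without a library and with library totals alone (adjusted p of up to 0.0889). The median log2 fold change of the 23 genes was -0.10 at WL1 and -0.23 at WL2 against Pre. The peroxidasin gene *Pxdn* had -0.38 at WL1 (adjusted p = 0.138) and -0.57 at WL2 (adjusted p = 0.0327). *P3h2* (0.05 and 0.09) and *Loxl2* (0.04 and -0.23) did not pass at WL1 or WL2.

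Receptors bind the sheet to the cells. Of 14 tested genes, 3 were lower at WL1, 4 were lower at WL2 and 1 was lower from WL1 to WL2. None was higher by edgeR or DESeq2, and 1, 0 and 1 were higher at an unadjusted p under 0.05. *Ddr1*, a receptor tyrosine kinase for collagens that include type IV, stood at 153, 160 and 169 CPM at Pre, 62.0, 58.3 and 62.5 CPM at WL1 and 34.1, 51.7 and 56.8 CPM at WL2. As for *Col15a1*, most of its difference from Pre was present at WL1, with log2 fold changes of -1.40 ± 0.16 at WL1 (adjusted p = 0.00127) and -1.76 ± 0.17 at WL2 (adjusted p = 0.000154). *Itga7*, a laminin-binding integrin chain, stood at 407 to 469 CPM at Pre, 235 to 261 CPM at WL1 and 127 to 135 CPM at WL2, with log2 fold changes of -0.85 ± 0.10 (adjusted p = 0.00133) and -1.74 ± 0.10 (adjusted p = 1.36e-05). The sarcoglycan gene *Sgcd* was lower at WL1 and at WL2 (log2 fold changes -0.78 and -0.75), and the integrin gene *Itga6* was lower at WL2 (-0.63). The calls of *Ddr1* and *Itga7* against Pre were kept in all 19 alternatives. Those of *Sgcd* were lost in 5 at WL1 and 5 at WL2, of which 4 and 5 left out a library (adjusted p of up to 0.0927 and 0.0746). That of *Itga6* was lost in 11, of which 6 left out a library (adjusted p of up to 0.121).

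Among 16 tested genes for proteases that cleave basement membrane and for their inhibitors, 4 were higher and 0 lower at WL1 against Pre. DESeq2 called 7 higher and 2 lower. The 4 genes encode proteases, and none of the 4 inhibitor genes *Timp1* to *Timp4* passed. At an unadjusted p under 0.05, 2 genes were lower, *Timp4* and the protease gene *Mmp15*, with log2 fold changes of -0.55 each (adjusted p = 0.0840 and 0.109). *Mmp12*, the macrophage elastase, stood at 120, 262 and 286 CPM at Pre, 715, 895 and 1670 CPM at WL1 and 1000, 278 and 300 CPM at WL2, with a log2 fold change of 2.29 ± 0.54 at WL1 (adjusted p = 0.0320). *Ctsk*, which encodes cathepsin K, stood at 66.4 to 85.6 CPM at Pre, 161 to 389 CPM at WL1 and 52.7 to 140 CPM at WL2 (log2 fold change 1.75 ± 0.42 at WL1, adjusted p = 0.0336). For both genes WL2 replicate 1 stood above the other WL2 libraries. *Mmp14*, a membrane-bound metalloproteinase that activates gelatinase A, was higher by a log2 fold change of 0.81 ± 0.18 (adjusted p = 0.0262), and the urokinase gene *Plau* by 0.66 ± 0.17 (adjusted p = 0.0455). Without Pre replicate 2, none of the 16 passed at WL1 and 8 were higher at an unadjusted p under 0.05. *Mmp12*, *Ctsk*, *Mmp14* and *Plau* were lost in 6, 8, 5 and 10 of the 19 alternatives (adjusted p of up to 0.130). Of these, 5, 5, 4 and 7 were fits without a library. At WL2 against Pre, 1 gene of the list, *Mmp15*, was lower (log2 fold change -0.81, lost in 5 fits without a library, adjusted p of up to 0.0832) and none was higher, with 3 higher at an unadjusted p under 0.05 and 2 by DESeq2. At WL2, library totals alone gave 2 higher and 0 lower, and the fit without Pre replicate 2 gave 1 higher and 0 lower, with 1 lower at an unadjusted p under 0.05 in each. At WL2 against WL1, edgeR called 1 higher, *Timp4* (log2 fold change 1.09, adjusted p = 0.0133). It called 2 lower, *Mmp2* (-0.98, adjusted p = 0.0449) and *Plau* (-0.84, adjusted p = 0.0308). In this comparison DESeq2 called 1 higher and 5 lower, and the replicate block gave 1 higher and 0 lower. The 12 macrophage markers summed to 1801 to 3371 CPM at Pre, 3205 to 5941 CPM at WL1 and 2022 to 3486 CPM at WL2, and their part in these results was not tested.

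**Figure D4:**
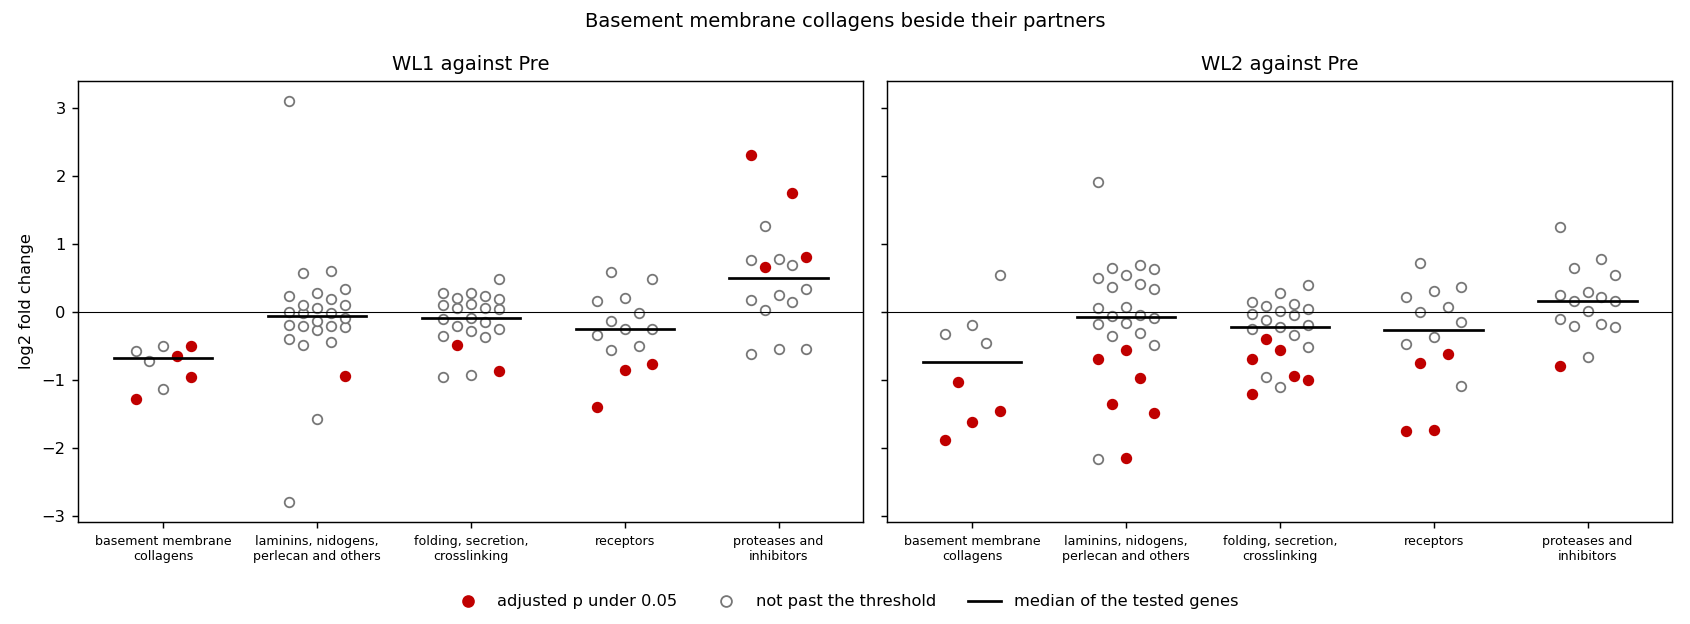
Log2 fold change (y axis) of each tested gene of 5 lists at WL1 against Pre (left) and WL2 against Pre (right), with filled red points for an adjusted p under 0.05 of edgeR's quasi-likelihood test and a line at the median of each list. The medians of the basement membrane collagens are -0.69 and -0.75, those of the partners -0.06 and -0.08, and that of the proteases and inhibitors is 0.50 at WL1 and 0.15 at WL2.

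Markers of the cells that make basement membrane were read beside these genes. None of 12 endothelial markers passed the threshold in any comparison by edgeR or DESeq2, and 0, 1 and 0 of them had an unadjusted p under 0.05 (the 1 higher at WL2). Their summed level was 2072 to 3211 CPM at Pre, 1813 to 3404 CPM at WL1 and 2625 to 3019 CPM at WL2. The *Col4a1* level divided by this sum was 0.876 to 1.30 at Pre, 0.662 to 1.06 at WL1 and 0.344 to 0.442 at WL2. The WL2 libraries lay below all others in this quotient, as they did in *Col4a1* itself. The part of the endothelium in the level of *Col4a1* was not tested. Of 12 markers of pericytes and smooth muscle, 2 were lower at WL1 and 3 at WL2, and none was higher by edgeR. At WL2, 1 (*Abcc9*, log2 fold change 0.62, adjusted p = 0.0595) was higher at an unadjusted p under 0.05, and DESeq2 and library totals alone each called 1 higher. The sum of the 12 markers was 1781 to 2056 CPM at Pre, 1170 to 1577 CPM at WL1 and 1111 to 1514 CPM at WL2. The actin gene *Acta2* was lower by a log2 fold change of -1.28 at WL1 and -1.06 at WL2. The NG2 proteoglycan gene *Cspg4* was lower by -1.33 and -1.80, and *Mcam* by -0.60 at WL2. The call of *Mcam* was lost in 13 of the 19 alternatives, of which 8 left out a library (adjusted p of up to 0.121). The part of these cells in the lower levels of the collagens was not tested.

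Of 12 markers of fibroblasts and progenitors, 0 passed at WL1 by edgeR and by DESeq2 (1 higher and 2 lower at an unadjusted p under 0.05). At WL2, 2 were higher, *Dcn* and *Gsn*. They were lost in 4 and 6 of the 19 alternatives (adjusted p of up to 0.0865 and 0.148), of which 4 each left out a library. Without Pre replicate 2, 0 of the 12 passed at WL2, with 4 higher and 2 lower at an unadjusted p under 0.05. The log2 fold change at WL2 was below 0 for 5 of the 12. The sum of the 12 markers was 9112 to 12260 CPM at Pre, 10290 to 10780 CPM at WL1 and 14280 to 18320 CPM at WL2, of which *Gsn* alone made up 6910 to 10600, 7960 to 8840 and 12000 to 15800 CPM. Of 12 adipocyte markers, 4 were lower at WL1, and at WL2 2 were higher and 2 lower, with sums of 28240 to 35430 CPM at Pre, 20120 to 26570 CPM at WL1 and 27250 to 31170 CPM at WL2. Without Pre replicate 2, 3 adipocyte markers were lower at WL1, and at WL2 0 were higher and 2 lower, with 2 higher at an unadjusted p under 0.05.

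The mesothelium covers the epididymal fat pad, and how much of it a piece of tissue holds varies. Its 12 markers summed to 299, 798.5 and 824 CPM in Pre replicates 1, 2 and 3, to 599, 303 and 389 CPM at WL1 and to 648, 1115 and 1438 CPM at WL2. *Efemp1* and *Cldn15* made up most of the sum where it was low, with 182 and 70.0 CPM in Pre replicate 1 and 159 and 91.6 CPM in WL1 replicate 2. The defining markers *Msln*, *Upk3b* and *Wt1* were present in all libraries, with *Upk3b* between 16.4 and 312 CPM. Within WL2, every gene of the basement membrane collagens had the same order of the 3 libraries as this sum. Within WL1, *Col4a1*, *Col4a2*, *Col4a6* and *Col18a1* had the order of the sum, and *Col4a3*, *Col4a4*, *Col4a5* and *Col15a1* did not. At Pre, *Col4a2* had this order too, *Col4a6* and *Col18a1* were highest in replicate 2 and not in replicate 3, and *Col4a1* was lowest in replicate 2. An order of 3 libraries is easily shared, and how many of all tested genes had these orders was not counted. The orders therefore do not set the basement membrane collagens apart from other genes. Between the phases, *Col4a1* and *Col4a2* were lowest at WL2, where the sum was highest in replicates 2 and 3. Of the 12 markers, 1, *Cldn15*, was higher at WL2 against Pre (lost in 4 fits without a library, adjusted p of up to 0.0782), and none passed at WL2 against WL1 by edgeR, although 11 were higher at an unadjusted p under 0.05 and DESeq2 called 1. The part of the mesothelium in the values of these collagens was not tested. The genes most like *Col4a6* over the 9 libraries, a list added after its values were seen, were *Prss23*, *Gjb5*, *Tnfrsf11b*, *Ildr2* and *Matn4* (r of 0.950 to 0.973), and those most like *Col4a5* were *Islr2*, *Fndc1*, *Col8a2*, *Mrgprf* and *Thbs3* (0.915 to 0.978).

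**Figure D5:**
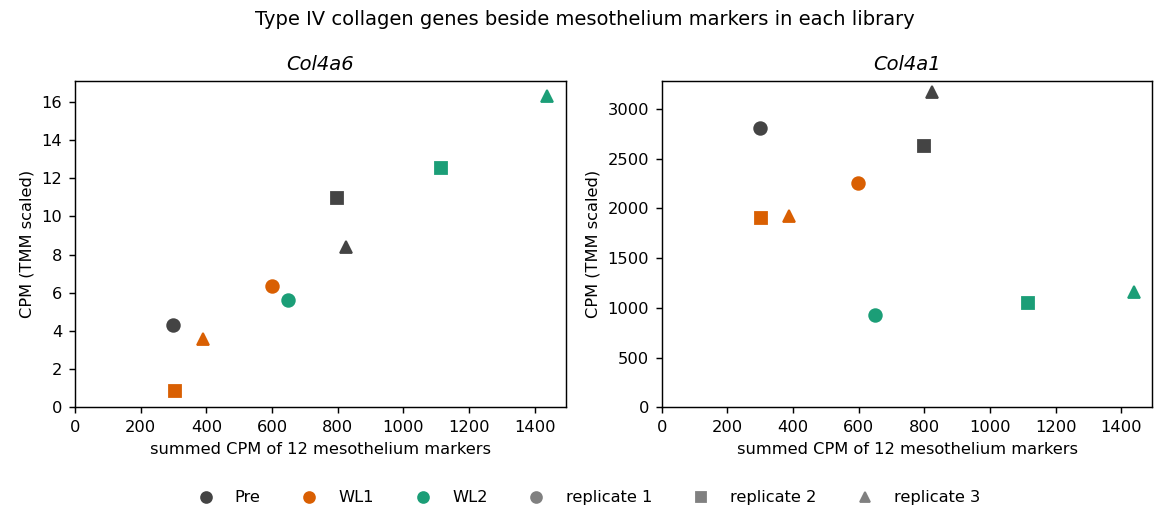
*Col4a6* (left) and *Col4a1* (right) in CPM against the summed CPM of 12 mesothelium markers, with 1 point per library, the phase shown by colour and the replicate number by shape. *Col4a6* runs from 0.872 CPM in a library with a sum of 303 CPM to 16.3 CPM in the library with 1438 CPM. In the library with the lowest sum, Pre replicate 1 with 299 CPM, *Col4a6* stood at 4.30 CPM. The *Col4a1* values of the 3 phases do not overlap.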

How the data were processed

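RNA of epididymal adipose tissue was sequenced in 9 libraries (3 each of Pre, WL1 and WL2), grouped by the sample labels. The authors deposited the raw count of reads of each gene and the FPKM of the same libraries. The FPKM were scaled to a total 0.995 to 1.015 times the counted reads at Pre and 1.07 to 1.12 times at WL1 and WL2. The submitters' processing notes name HISAT2, HISAT, TopHat2, CASAVA and GRCm38 (mm10). How reads were counted, and with which strand setting, was not given in the sources used here. Coordinates of the table equal those of GENCODE M21 on GRCm38 for 1 of the 8 genes, so they are given as in the table, without a build.

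Genes that reached 0.5 CPM in 1 or more libraries entered the quasi-likelihood test of edgeR 4.0.16 (R 4.3.3), as 1 model without covariates, with TMM factors and Benjamini-Hochberg adjustment. At this depth, 1 CPM is few reads, so changes of genes near the filter have wide counting error. The script was tested on simulated data. Alternatives used DESeq2 1.42.0, limma 3.58.1 on log2(FPKM + 1) and log2(FPKM + 0.1), other filters, other scaling, a block for the replicate number, the 2 compared phases alone, and each library left out. Log2 ratios of reads used a pseudocount of 0.5. Promoter windows came from RefSeq (7 of 8 genes matched).

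The members and gene lists were chosen with earlier results of these data known. Named genes are the 8 members, of each list of matrix genes (not of the cell type markers) the 3 largest rises and the 3 largest falls past the threshold at WL1 and WL2 against Pre, the 5 genes most like *Col4a1*, *Col15a1* and *Col18a1*, and overlapping genes. *Plau*, *Itga6*, *Cd79a*, *Timp4*, *Abcc9* and the genes most like *Col4a5* and *Col4a6* were named after their values were seen. So were *Pxdn*, *P3h2*, *Loxl2*, *Col1a1*, *Col1a2*, *Col3a1*, *Mmp2*, *Efemp1*, *Ighm* and *Alb*. The counts of replicates differed beyond sampling noise (chi-square over its degrees of freedom 9.13 to 48.9), and none were identical.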

Additional observations from a re-analysis of the deposited data

How the results depend on the processing

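Against Pre at WL2, the same 4 genes passed the threshold in all 19 alternatives. The number of members that passed was 2 to 4 at WL1 against Pre and 0 to 3 at WL2 against WL1 when single libraries were left out, with 0 without WL2 replicate 2. Over all genes, the number past the threshold was 1350 at WL1 against Pre, 2344 with DESeq2 and 512 to 1500 with a library left out. It was 1853 at WL2 against Pre, and 743 to 1688 with a library left out. At WL2 against WL1 it was 681, 1668 without the filter, 1935 with DESeq2, 1053 with the 2 phases alone and 37 to 1351 with a library left out. Scaling by library totals alone moved the share of higher genes among those called from 35.7% to 60.9% at WL1 and from 33.5% to 64.1% at WL2 against Pre, with median log2 fold changes of all genes of 0.12 and 0.16, and upper quartile factors moved it from 35.5% to 48.3% at WL2 against WL1. The log2 fold change changed sign with a library left out for genes that did not pass the threshold, over ranges of -0.44 to 0.0389 for *Col4a5* at WL2 against Pre, and at WL2 against WL1 of -0.45 to 0.49 for *Col4a3* and -0.27 to 0.16 for *Col18a1*. With a library left out, the difference of the mean log2 ratio between WL2 and Pre was 0.11 to 0.23 for *Col4a1* to *Col4a2*, -0.86 to -0.59 for *Col4a5* to *Col4a6*, -0.98 to -0.72 for *Col15a1* to *Col18a1*, 0.34 to 0.48 for *Col4a1* to *Col15a1*, -0.57 to -0.27 for *Col4a1* to *Col18a1* and -0.26 to 0.42 for *Col4a3* to *Col4a4*. The cause of these moves was not tested.

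The replicate numbers did not pair the libraries: same-numbered libraries of different phases had correlations of -0.28 to 0.11, and 0 of 9 libraries correlated best with its own number in both other phases. With the replicate number as a block, the genes past the threshold numbered 844 (WL1 against Pre) and 330 (WL2 against WL1), and *Col4a1* missed it at WL1 against Pre (log2 fold change -0.50, adjusted p = 0.0884). Within blocks the exact permutation test of the ratios has fewer distinct divisions than the unblocked test, so its smallest possible p is larger. A ratio could pass the adjusted threshold only if several ratios reached that smallest p together. The blocked test therefore cannot decide whether the differences hold within blocks. It left none past the adjusted threshold, with unchanged differences of 0.17 (*Col4a1* to *Col4a2*, adjusted p = 0.133), -0.70 (*Col4a5* to *Col4a6*, adjusted p = 0.133), -0.81 (*Col15a1* to *Col18a1*, adjusted p = 0.111), 0.43 (*Col4a1* to *Col15a1*, adjusted p = 0.0833) and -0.38 (*Col4a1* to *Col18a1*, adjusted p = 0.0833).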

Other observations

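Other collagens were read beside those of the basement membrane. Of 9 tested fibril-forming collagens, 2 were lower at WL1 against Pre and 4 at WL2, and 3 were lower from WL1 to WL2. None was higher in these comparisons by edgeR or DESeq2 or at an unadjusted p under 0.05. Without Pre replicate 2, 8 were tested, and 1 was lower at WL1 and 3 at WL2 against Pre. *Col5a3*, a chain of type V collagen, stood at 1060, 1040 and 1170 CPM at Pre, 504, 470 and 581 CPM at WL1 and 251, 313 and 341 CPM at WL2. Its phases did not overlap, with log2 fold changes of -1.07 ± 0.14 at WL1 (adjusted p = 0.00204) and -1.85 ± 0.14 at WL2 (adjusted p = 4.31e-05). *Col5a1* was lower by -0.62 at WL1 and by -1.59 at WL2, and *Col5a2* by -1.12 at WL2. Of these calls, that of *Col5a1* at WL1 was lost in 4 of the 9 fits without a library (adjusted p of up to 0.0890), and the others were kept in all 19 alternatives. The median log2 fold change of the 9 was 0.002 at WL1 and -0.87 at WL2. *Col1a1*, *Col1a2* and *Col3a1* had 0.09, 0.13 and 0.002 at WL1, and none of them passed there. At WL2 they had -0.87, -0.49 and -0.89 (adjusted p = 0.0505, 0.163 and 0.0416).

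Of 19 tested collagens of other classes, 3 were lower at WL1 against Pre, 6 were lower and 1 higher at WL2, and 6 were lower from WL1 to WL2. *Col6a2*, a chain of the type VI microfibrils around adipocytes, stood at 1500, 1760 and 1730 CPM at Pre, 755, 698 and 947 CPM at WL1 and 407, 409 and 474 CPM at WL2, with log2 fold changes of -1.06 ± 0.14 (adjusted p = 0.00232) and -1.95 ± 0.14 (adjusted p = 3.31e-05). *Col6a1* was lower by -0.84 and -1.55 and *Col12a1*, which encodes a collagen bound to fibrils, by -0.97 and -1.86. The gene that was higher was *Col20a1*, at 0.943 to 2.58 CPM at Pre and 4.16 to 5.85 CPM at WL2 (log2 fold change 1.54 ± 0.35, adjusted p = 0.0222). The calls of *Col12a1* at WL1 and of *Col20a1* at WL2 were lost in 6 and 5 of the 19 alternatives (adjusted p of up to 0.0776 and 0.0862). Of these, 5 and 4 were fits without a library. The calls of the type VI genes named here were kept in all 19. Without Pre replicate 2, 2 of 18 tested were lower at WL1, and at WL2 5 were lower and 0 higher, with 1 higher at an unadjusted p under 0.05.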
